A study of Homo sapiens with 8 samples.

Results

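Promoters of the genes for ubiquitin-conjugating (E2) enzymes and for USP deubiquitinases were examined for peaks of PHF20 and of its homolog PHF20L1. The members were the protein-coding genes of GENCODE release 44 whose symbols begin with UBE2 and a letter or with USP and a digit. The 26 USP17L repeat genes that match the same pattern were left out. This gave 89 of 20033 protein-coding genes, of which 37 were UBE2 genes and 52 were USP genes. A gene was called bound by a protein if at least 1 of its peaks overlapped a promoter window that began 1000 bp before and ended 500 bp after the transcription start site (TSS) of any of its transcripts on hg38. Of the 89 members, 37 were bound by PHF20, 8 of these were bound by PHF20L1 as well, and 52 were bound by neither.

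PHF20 and PHF20L1 are Tudor and PHD finger proteins of the NSL complex, which contains the histone H4 acetyltransferase KAT8. The experiment was HA ChIP-Seq in U2OS, a human osteosarcoma cell line, made to overexpress tagged protein and sorted for GFP as pools. PHF20 carried 3xHA at the N terminus in 2 ChIP libraries with 1 input, and PHF20L1 carried 3xHA at the N terminus in 1 ChIP library and at the C terminus in 2, with 2 inputs. All 8 libraries came from cells that overexpress a tagged protein and also hold the endogenous genes, so binding of untagged PHF20 and PHF20L1 at natural levels was not measured. The authors' final lists held 4147 PHF20 peaks and 723 PHF20L1 peaks. Each list held the peaks of the best replicate that overlapped peaks of the other replicates. A peak has only a start and an end there, with no height and no value per replicate, so no spread between replicates could be taken from these lists and no test between conditions was made. Intervals below are 95% intervals over genes (Wilson for a share, Newcombe for a difference), and they cover counting error only.

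Ubiquitin is activated by an E1 enzyme, passed to the active-site cysteine of an E2 and then placed on a substrate with an E3 ligase. The E2 often decides which kind of chain is built, and some E2s carry SUMO, NEDD8 or ISG15 in place of ubiquitin. USP enzymes are cysteine proteases that remove ubiquitin or trim its chains. Many genes of both groups are expressed in nearly every tissue, while a few USP genes are known mainly from germ cells.

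The sequences that the results turn on are shown first. For members with peaks of both proteins, the 250 bases before the gene's start are given from the RefSeq promoter table (GRCh38.p14), which held 68 of the 89 members. Letters are in lower case and in capitals where 1 of 5 searched sequences of 8 bases is present on either strand. The searched sequences were ACTTCCGG (ETS type), CACGTGAC (E-box type), AAGATGGC (YY1 type), GCGCATGC (NRF1 type) and TCGCGAGA. The stretches are USP36 at chr17:78840815-78841064 (- strand), USP16 at chr21:29024418-29024667 (+ strand), USP8 at chr15:50424155-50424404 (+ strand), USP30 at chr12:109052326-109052575 (+ strand) and USP40 at chr2:233566783-233567032 (- strand).
USP36: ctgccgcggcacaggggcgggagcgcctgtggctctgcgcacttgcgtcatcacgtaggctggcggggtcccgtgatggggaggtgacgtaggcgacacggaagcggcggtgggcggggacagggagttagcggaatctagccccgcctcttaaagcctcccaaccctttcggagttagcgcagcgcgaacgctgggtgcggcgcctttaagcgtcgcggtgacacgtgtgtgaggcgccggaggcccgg
USP16: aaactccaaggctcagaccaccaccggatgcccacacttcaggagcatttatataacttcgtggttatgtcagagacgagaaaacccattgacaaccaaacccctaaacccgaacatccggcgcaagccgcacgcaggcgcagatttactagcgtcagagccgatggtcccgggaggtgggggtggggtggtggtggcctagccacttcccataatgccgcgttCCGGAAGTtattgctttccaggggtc
USP8: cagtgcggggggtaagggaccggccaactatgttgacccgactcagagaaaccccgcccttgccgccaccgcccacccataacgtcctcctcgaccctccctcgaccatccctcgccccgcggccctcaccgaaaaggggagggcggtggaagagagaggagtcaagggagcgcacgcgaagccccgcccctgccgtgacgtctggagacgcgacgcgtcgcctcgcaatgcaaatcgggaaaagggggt
USP30: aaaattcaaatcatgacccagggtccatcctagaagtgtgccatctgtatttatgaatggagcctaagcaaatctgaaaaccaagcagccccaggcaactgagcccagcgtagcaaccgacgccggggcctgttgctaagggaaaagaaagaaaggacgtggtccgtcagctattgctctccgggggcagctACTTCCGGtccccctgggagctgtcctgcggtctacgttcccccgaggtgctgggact
USP40: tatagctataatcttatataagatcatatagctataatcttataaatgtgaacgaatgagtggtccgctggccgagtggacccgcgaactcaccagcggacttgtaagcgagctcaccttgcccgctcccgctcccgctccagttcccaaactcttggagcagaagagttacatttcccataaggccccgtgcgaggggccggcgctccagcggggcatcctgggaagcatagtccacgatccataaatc
ACTTCCGG was present in the stretches of USP16 and USP30, 26 and 58 bases before the start, and none of the 5 sequences was found in those of USP8, USP36 and USP40. The USP40 stretch had only 86 of its 250 bases in the PHF20 peak, and the stretches of USP36 and USP40 had 0 in the PHF20L1 peak. USP42 also carried both peaks and is given by name and coordinates only. The table's start of UBE2L3 lies 18267 bp from its canonical TSS and outside both peaks, so that stretch is not shown.

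A bound and an unbound gene of 1 family, and the unbound relative of USP16, are shown for contrast. They are UBE2D2 at chr5:139561089-139561338 (+ strand), UBE2D4 at chr7:43926186-43926435 (+ strand) and USP45 at chr6:99515424-99515673 (- strand).
UBE2D2: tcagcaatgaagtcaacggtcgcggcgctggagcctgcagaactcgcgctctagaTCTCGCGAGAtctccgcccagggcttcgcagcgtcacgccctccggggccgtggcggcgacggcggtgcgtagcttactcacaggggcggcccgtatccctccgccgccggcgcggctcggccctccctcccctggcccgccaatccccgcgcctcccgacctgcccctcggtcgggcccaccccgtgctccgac
UBE2D4: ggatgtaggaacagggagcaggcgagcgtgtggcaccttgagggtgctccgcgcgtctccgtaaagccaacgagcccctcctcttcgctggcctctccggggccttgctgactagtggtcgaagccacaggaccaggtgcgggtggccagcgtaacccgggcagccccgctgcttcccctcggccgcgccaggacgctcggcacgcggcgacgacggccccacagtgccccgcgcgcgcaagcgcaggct
USP45: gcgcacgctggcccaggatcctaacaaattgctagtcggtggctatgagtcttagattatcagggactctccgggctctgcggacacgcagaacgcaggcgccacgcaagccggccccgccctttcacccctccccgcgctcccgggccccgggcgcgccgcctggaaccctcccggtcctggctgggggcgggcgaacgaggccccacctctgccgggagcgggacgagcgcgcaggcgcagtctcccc
The UBE2D2 stretch lay wholly inside a PHF20 peak and held TCGCGAGA on both strands in 1 overlapping run. The stretches of UBE2D4 and USP45 lay in no peak of either protein and held none of the 5 sequences, although their GC content was 71.2% and 71.6%, close to the 73.6% of UBE2D2 and above the 56.0% of USP16. Their CpG observed/expected ratios were 0.916 and 0.882.

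PHF20 was found at the promoters of 14 of 37 UBE2 genes (37.8%, interval 24.1 to 53.9) and 23 of 52 USP genes (44.2%, interval 31.6 to 57.7). Over all protein-coding genes the share was 20.7%, below the lower limit of both groups. For UBE2 genes this did not hold with the outermost start alone (lower limit 17.5 against 17.8% of all genes), with peaks of at least 300 bp (17.5 against 18.6%) or with peaks from the median width upward (9.48 against 12.1%). It held for USP genes in these 3 cases. PHF20L1 was found at 2 UBE2 genes (5.41%, interval 1.5 to 17.7) and 6 USP genes (11.5%, interval 5.40 to 22.97), and the share over all protein-coding genes was 3.82%. This value lay inside the UBE2 interval and under the lower limit of the USP interval, which it was not with peaks from the median width upward (1.98 against 2.11%).

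The 2 groups could not be separated. The UBE2 share minus the USP share was -6.39 percentage points for PHF20 (interval -25.6 to 14.0) and -6.13 points for PHF20L1 (interval -18.2 to 7.61), so both intervals included 0. Among PHF20-bound members, 2 of 14 UBE2 genes and 6 of 23 USP genes also had PHF20L1, against 18.0% of all PHF20-bound genes, and the interval of that difference (-34.6 to 17.2 points) again included 0. Both proteins were present at 8 members in all (8.99%, interval 4.63 to 16.7), against 3.73% of all protein-coding genes. No member had PHF20L1 alone. A count of 0 of 89 allows a share of up to 3.37% when taken as 3 counts, and 4.14% by the Wilson interval, and over all genes PHF20L1 alone was seen at 19 of 20033.

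**Figure D1:**
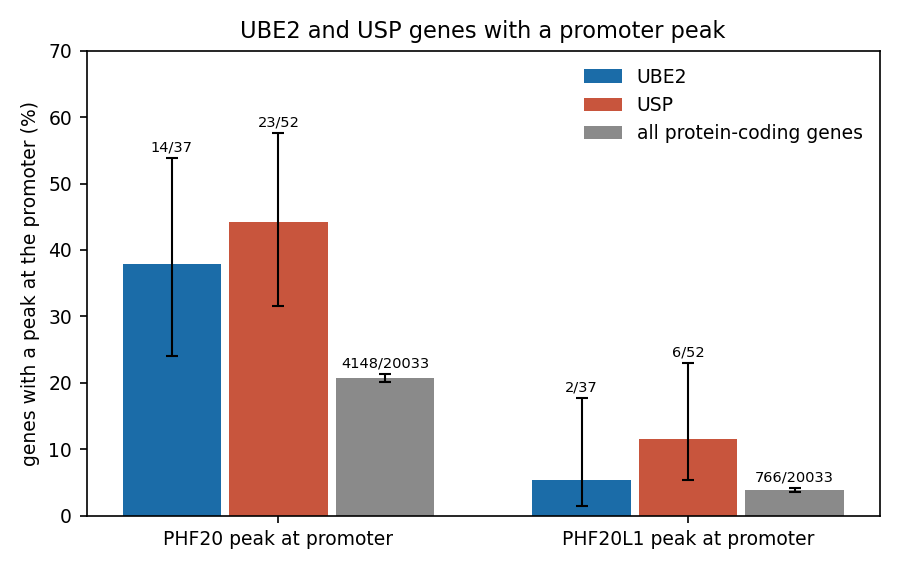
Share of genes with a promoter peak (vertical axis, percent) of PHF20 or PHF20L1 in UBE2 genes, USP genes and all protein-coding genes. Bars give the share, error bars the Wilson 95% interval and labels the bound genes of all genes. Both groups reached a higher PHF20 share than the 20.7% of all genes, with intervals that overlap each other.

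Promoters of the members were mostly rich in CpG. A promoter was counted as CpG-rich when the 300 bases around the canonical start had a CpG observed/expected ratio of at least 0.6 and a GC content of at least 50%. This held for 35 of 37 UBE2 genes, 46 of 52 USP genes and 65.5% of all protein-coding genes. Among CpG-rich promoters alone, PHF20 was found at 14 of 35 UBE2 genes (40.0%, interval 25.6 to 56.4) and 22 of 46 USP genes (47.8%, interval 34.1 to 61.9), against 28.6% of all genes with such promoters and 5.71% of all other genes. The UBE2 interval then included the share of all genes and the USP interval did not.

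The members also had more annotated starts than most genes. The median number of distinct starts was 7 in UBE2 genes, 9 in USP genes and 5 in all protein-coding genes. Bound USP genes had a median of 12 starts and unbound ones 7, and bound UBE2 genes had 8 against 6. With only the Ensembl canonical start of each gene, 34 of the 37 members were still bound by PHF20, and the share of all genes was 19.1%. The 3 members lost in this way were UBE2D3, USP39 and USP54.

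The counts by role that follow stand beside a PHF20 share of 41.6% of all members and 20.7% of all protein-coding genes. The role lists are small, no intervals were taken for them, and differences between them were not tested. Of the UBE2 genes, those that build K48 chains or act at the endoplasmic reticulum were bound in 4 of 6 cases. These were UBE2G2, which works with membrane-bound ligases in the degradation of misfolded proteins, UBE2J1 and UBE2J2, which are anchored in that membrane, and UBE2R2, a relative of CDC34. The PHF20 peaks there were 718, 454, 938 and 506 bp wide. UBE2G1 and UBE2K, the other members of the list, had no peak.

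The largest E2 list, the D and E families with near relatives, had 4 of 9 members bound. UBE2D1, UBE2D2 and UBE2D3, general-purpose partners of RING ligases, had PHF20 only. UBE2L3, which serves HECT and RBR ligases such as parkin, had both proteins. UBE2D4, UBE2E1, UBE2E2, UBE2E3 and UBE2W, which modifies protein N termini, had neither.

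In the list for K63 chains 2 of 4 genes were bound, beside 41.6% of all members. UBE2V1 and UBE2V2, the inactive variants that orient ubiquitin, had PHF20 peaks of 375 and 706 bp. Their catalytic partner UBE2N had none. Its retrogene UBE2NL, on chromosome X and with a promoter that was not CpG-rich, had none either. UBE2M and UBE2F, which carry NEDD8, and UBE2L6, which carries ISG15, had neither protein.

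Among the genes for DNA repair and chromatin, 1 of 3 was bound. UBE2B, the RAD6-type enzyme of DNA damage tolerance and histone H2B ubiquitination, was bound by PHF20, and its relative UBE2A and the Fanconi anaemia enzyme UBE2T were not. Among large or atypical enzymes 2 of 7 were bound. UBE2Q1 and UBE2Z, which receives ubiquitin from UBA6, had PHF20, and UBE2H, UBE2O, UBE2Q2, UBE2QL1 and UBE2U did not. Neither UBE2C nor UBE2S, the pair that builds chains with the anaphase-promoting complex, had a peak. UBE2L5 and UBE2F-SCLY, a readthrough of UBE2F, were in no role list and were unbound.

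Of the USP genes, those acting on histones were bound in 4 of 9 cases. USP16, which removes ubiquitin from histone H2A, and USP36, a nucleolar enzyme, had both proteins. USP3, also an H2A enzyme, and USP22, the deubiquitinase of the SAGA coactivator, had PHF20 only. USP21, USP27X, USP44, USP49 and USP51 had neither.

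For the DNA damage and p53 list the count was 3 of 6. USP1, which acts on FANCD2 and PCNA, USP10, which acts on p53, and USP48 had PHF20, and USP7, USP28 and USP47 had no peak of either protein. In the endosome and signalling list 3 of 9 were bound. USP8, which sorts receptors at endosomes, had both proteins, USP33 and USP46 had PHF20, and USP2, USP6, USP9X, USP12, USP20 and USP32 were unbound.

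Small USP lists were mixed. USP30, the deubiquitinase of the outer mitochondrial membrane, had both proteins. USP14, which sits on the proteasome, and USP13 had PHF20, and USP5, the main enzyme for free chains, had none. USP4 and USP39, which act with the spliceosome, had PHF20 and USP15 had none. None of the 4 germ cell genes USP9Y, USP26, USP29 and USP50 was bound, nor was USP18, the ISG15 protease.

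The 16 USP genes outside these lists were bound in 8 cases. USP40 and USP42 had both proteins. USP11, USP19, USP24, USP34, USP37 and USP54 had PHF20 only. USP25, USP31, USP35, USP38, USP43, USP45 and USP53 were unbound, as was USP6NL, a RabGAP that the symbol rule admits although it is no protease.

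**Figure D2:**
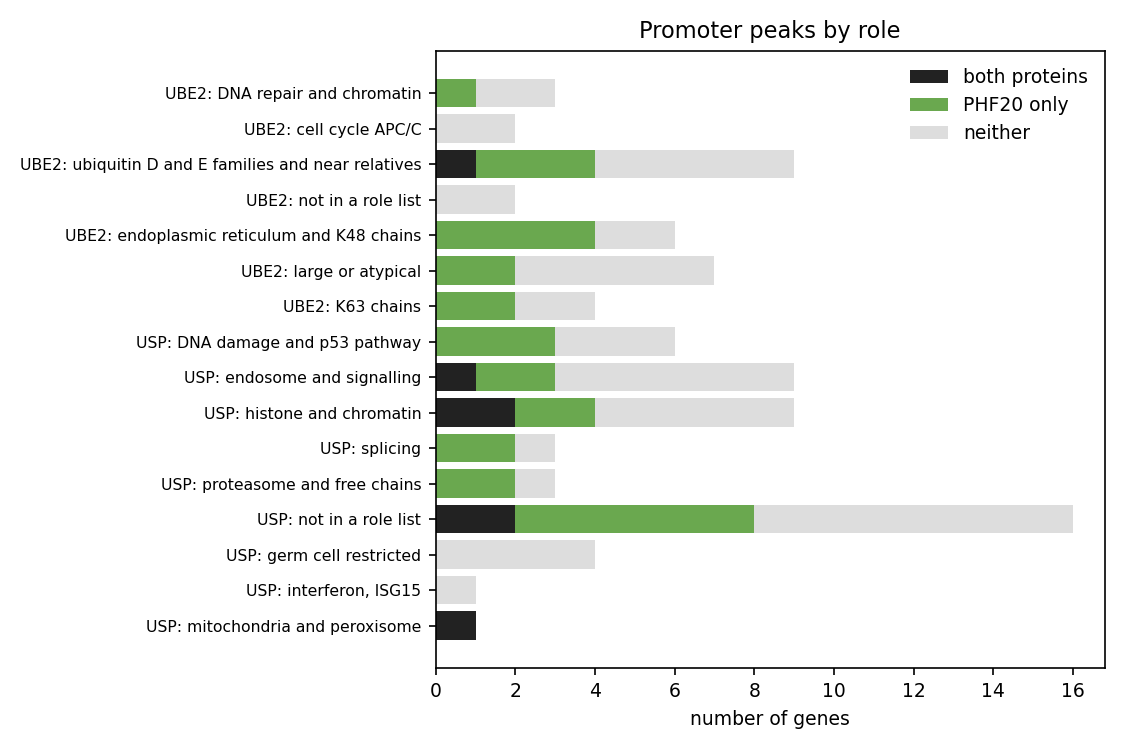
Number of genes (horizontal axis) in 16 rows, divided into those with peaks of both proteins, of PHF20 only and of neither. Rows are role lists of the UBE2 and USP groups and, for each group, the genes not in a role list. The K48 and endoplasmic reticulum list had 4 of 6 genes bound, and the germ cell list 0 of 4. PHF20 was at 41.6% of all members and 20.7% of all protein-coding genes. The lists are small, and differences between them were not tested.

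Close relatives were not always bound alike. Of 16 families of paralogs, 2 had PHF20 at all their genes, 10 at some and 4 at none. PHF20 was at 41.6% of all members, and no count of mixed families to expect from that share was worked out. UBE2A and UBE2B, whose proteins share 95.4% of residues, were unbound and bound. UBE2D4 shares 93.2% with UBE2D2 and had no peak while the other three of its family did. USP12 and USP46, 88.5% identical, were unbound and bound, and USP22 was bound while its relatives USP27X (80.4%) and USP51 (70.5%) were not. The unbound UBE2A, USP27X and USP51 lie on chromosome X, where 5.01% of all coding genes were bound. USP16 had both proteins and its relative USP45, 39.7% identical, had neither. The families bound throughout were UBE2V1 with UBE2V2 (90.3% identical) and UBE2J1 with UBE2J2 (34.4%).

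At the 8 members with both proteins, the PHF20L1 peak lay wholly inside the PHF20 peak in every case. Over all coding promoters PHF20L1 peaks were the narrower, with a median of 323 bp against 974 bp for PHF20 peaks that overlap them. The share of contained peaks over all coding promoters was not worked out. At UBE2L3 the PHF20 peak was chr22:21567631-21568267 (637 bp) and the PHF20L1 peak chr22:21567746-21568181 (436 bp), 68.4% of it. This coverage was above that at any of the 6 USP genes.

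USP genes ranged more widely. USP40 had a PHF20 peak at chr2:233566124-233566868 (745 bp) and a PHF20L1 peak at chr2:233566267-233566715 (449 bp, 60.3% of it). USP8 had chr15:50423628-50424736 (1109 bp) and chr15:50423786-50424316 (531 bp, 47.9%). USP16 had chr21:29024041-29025229 (1189 bp) and chr21:29024532-29024893 (362 bp, 30.4%). In these 3 genes PHF20L1 covered between 30.4% and 60.3% of the PHF20 peak.

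The last 3 genes had the least coverage. USP42 had chr7:6104087-6105177 (1091 bp) and chr7:6104344-6104655 (312 bp, 28.6%), USP30 had chr12:109052009-109053024 (1016 bp) and chr12:109052443-109052682 (240 bp, 23.6%), and USP36 had chr17:78840241-78841577 (1337 bp) and chr17:78841139-78841358 (220 bp, 16.5%). The PHF20L1 centre lay 339 bp upstream of the PHF20 centre at USP36, and 5 bp downstream of it at USP40. USP36 thus had the widest PHF20 peak among the members and the narrowest PHF20L1 peak.

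**Figure D3:**
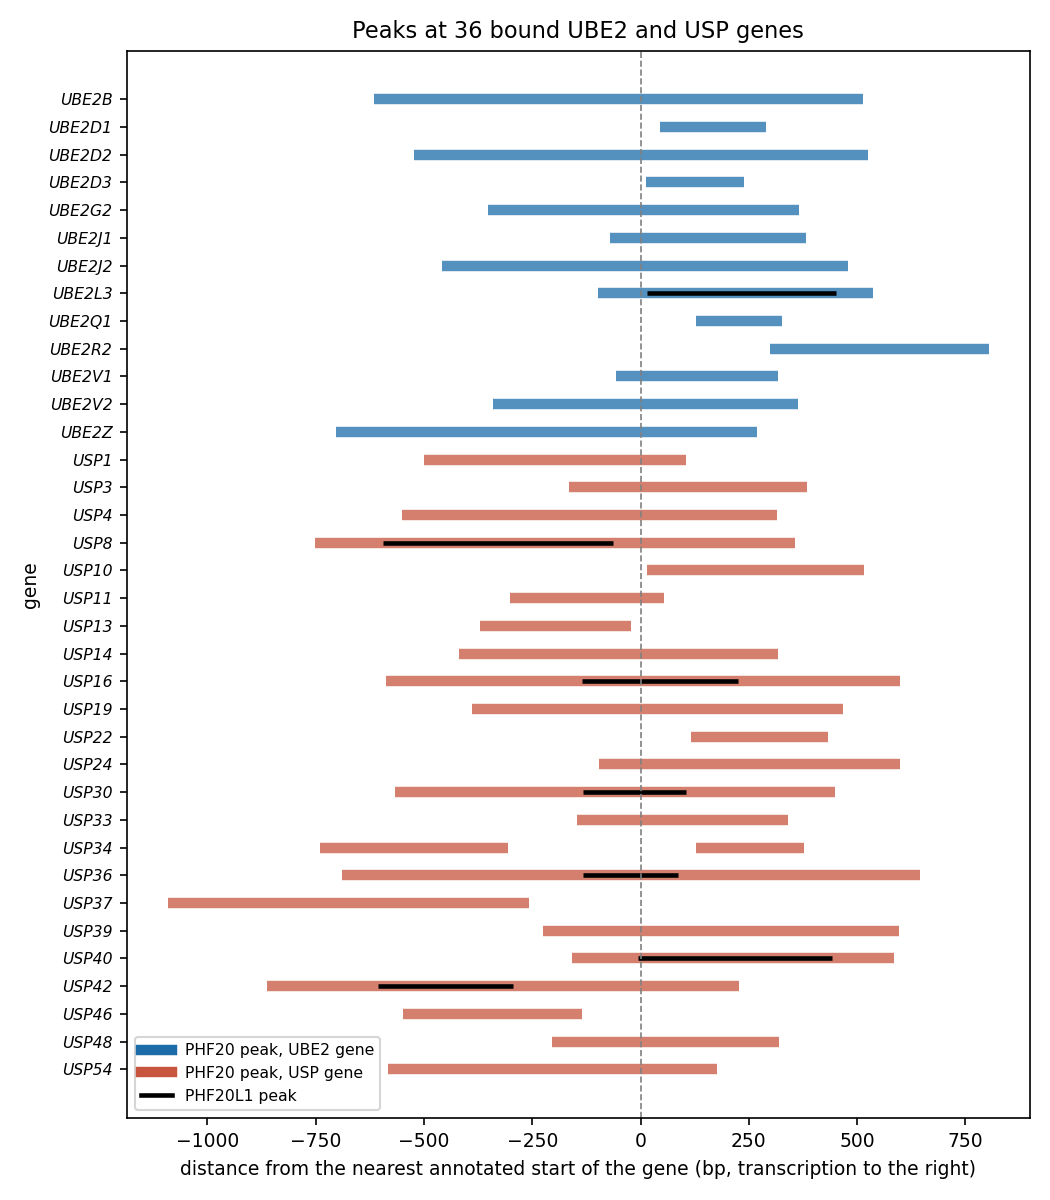
Extent of each peak at 36 of the 37 bound genes (rows), in bp from the annotated start of the gene that is nearest to the peak centre, with transcription to the right. Thick bars are PHF20 peaks (blue UBE2, red USP) and thin black bars PHF20L1 peaks, each inside its PHF20 peak, and the 2 peaks of USP34 are drawn from different starts.

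PHF20 peaks of members with both proteins had a median width of 1054 bp (8 peaks), and those of members with PHF20 only 538 bp (30 peaks, 200 to 1131). Over all coding promoters the corresponding medians were 974 bp for PHF20 peaks overlapping PHF20L1 and 572 bp for the others. By group, the median was 585.5 bp in 14 peaks of UBE2 genes and 717 bp in 24 of USP genes, against 635 bp in all 3562 coding promoter peaks. The lists used here give no peak height to set beside the widths, and each width comes from the best replicate only.

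The widest PHF20 peaks of UBE2 genes were those of UBE2B (1131 bp, chr5:134370568-134371698), UBE2D2 (1049 bp, chr5:139560644-139561692), UBE2Z (974 bp, chr17:48907704-48908677), UBE2J2 (938 bp, chr1:1273336-1274273) and UBE2G2 (718 bp, chr21:44801403-44802120). All 5 were wider than the PHF20 peak of UBE2L3. The narrowest were UBE2Q1 (200 bp, chr1:154558336-154558535) and UBE2D3 (228 bp, chr4:102868622-102868849). At USP genes the 5 widest were USP36, USP16, USP8, USP42 and USP30, all of them with PHF20L1. The narrowest were 1 of the 2 peaks of USP34 (251 bp, chr2:61470313-61470563) and the peak of USP22 (318 bp, chr17:21042577-21042894).

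**Figure D4:**
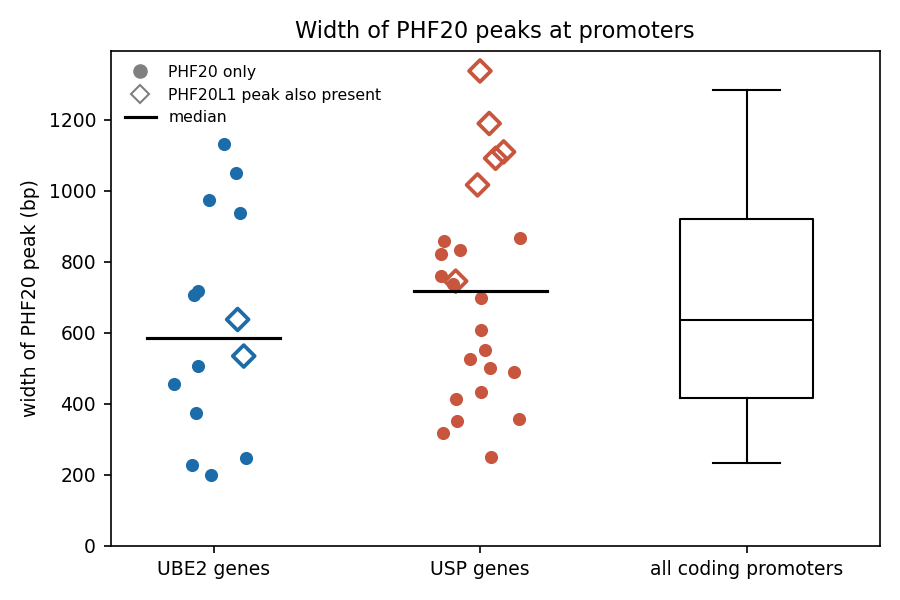
Width of PHF20 peaks (vertical axis, bp) at UBE2 and USP genes, 1 point per peak with diamonds where PHF20L1 was also present, beside all coding promoter peaks (box from the 25th to the 75th percentile with the median, whiskers from the 5th to the 95th). The 5 widest USP peaks, 1016 to 1337 bp, all carry PHF20L1.

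Most peaks lay across or just downstream of a start. The PHF20 centre was downstream of the canonical start in 9 of 14 UBE2 peaks (4 in the 5′ UTR, 3 in coding sequence and 2 in an intron) and upstream in 5. In USP genes 11 of 24 were downstream (1 in the 5′ UTR, 3 in coding sequence and 7 in an intron) and 13 upstream. At UBE2R2 the centre lay 551 bp downstream of its only annotated start, which is outside the window, and 202 bp of the peak reached into it. At every other bound member a PHF20 peak centre lay inside the window.

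At 3 members the peak lay outside the promoter window of the canonical start and inside that of another start. The PHF20 peak of UBE2D3 was centred 126 bp downstream of an alternative start and 41184 bp upstream of the canonical start. That of USP54 (chr10:73625941-73626700) lay 34978 bp upstream of the canonical start and 203 bp upstream of another. That of USP39 (chr2:85611897-85612718) lay 3879 bp upstream of the canonical start and 185 bp downstream of another.

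Few members shared their peak with another coding promoter. This was so for 5 of 37 PHF20-bound members (13.5%, interval 5.91 to 27.98), compared with 1585 of 4148 PHF20-bound genes in all (38.2%). UBE2B shared its peak with CDKL3, UBE2D3 with CISD2, USP37 with CNOT9 and USP39 with C2orf68, each transcribed in the opposite direction, and USP19 with LAMB2 in the same direction. USP37 was the 1 member whose own start was not the coding start nearest to the peak centre. For these 5 genes the peak cannot be given to 1 gene of the pair. The peak also reached the promoter window of a lncRNA at 7 members, among them USP34 and USP46 with their divergent transcripts USP34-DT and USP46-DT.

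Among the 52 unbound members, the distance from a start to the nearest PHF20 peak had a median of 92779 bp in UBE2 genes and 201372 bp in USP genes, so a slightly wider window would have added none. The nearest was USP21, at 2291 bp from its start, and that peak (chr1:161166170-161166727) lay at the promoter of PPOX. Peaks within 5 kb of the gene body were found at 3 others. UBE2F-SCLY contained the peak at the promoter of SCLY, UBE2Q2 lay 2211 bp from the peak at FBXO22, and USP49 lay 1848 bp from a PHF20 peak and 2050 bp from a PHF20L1 peak at FRS3 and TOMM6. Of the 7 members on chromosome X only USP11 was bound, and 5.01% of all coding genes of that chromosome were.

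The base composition of bound and unbound members was similar by its medians. The median CpG observed/expected ratio was 0.871 in bound and 0.929 in unbound UBE2 promoters, and 0.944 and 0.854 in USP promoters. Over all coding genes it was 0.889 in bound and 0.723 in unbound promoters. The median GC content was 71.5% and 70.3% in UBE2 genes and 70.3% and 69.7% in USP genes. Of the 8 members whose promoter was not CpG-rich, 1 was bound, USP54, whose peak lay at another start.

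**Figure D5:**
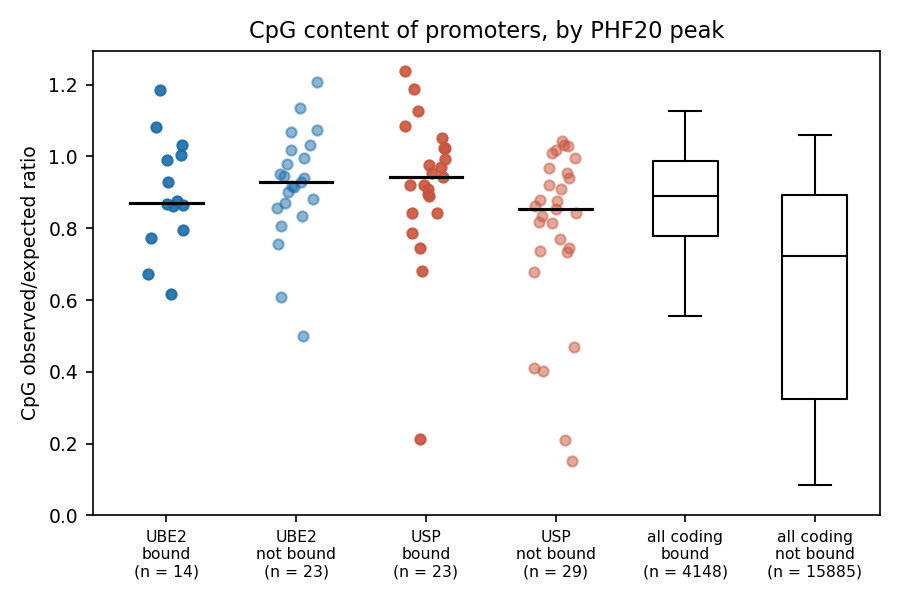
CpG observed/expected ratio of the 300 bases around the canonical start (vertical axis) for UBE2 and USP genes with and without a PHF20 peak, 1 point per gene with the median as a line, beside all coding genes (box from the 25th to the 75th percentile, whiskers from the 5th to the 95th). The medians of the 4 member sets lie between 0.854 and 0.944, above the 0.723 of all unbound genes.

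The 5 sequences of 8 bases were counted in the same 300 bases, for each group. AAGATGGC was present in 5 of 14 bound UBE2 promoters (35.7%, interval 16.3 to 61.2) and in 0 of 23 unbound ones (0%, interval 0 to 14.3). Among all coding genes it was in 8.51% of bound and 2.88% of unbound promoters, and in 4.04% of all promoters of this length. The UBE2 intervals did not overlap, the only case among the 10 pairs of group and sequence. In USP promoters it was in 1 of 23 bound and 2 of 29 unbound. The 5 UBE2 genes were UBE2J2, UBE2L3, UBE2Q1, UBE2V1 and UBE2V2. UBE2V1 and UBE2V2 are paralogs with proteins 90.3% identical, and the interval counts them as separate genes. The peaks themselves held it in 5 of 14 cases in UBE2 genes and 0 of 24 in USP genes, against 10.1% of all coding promoter peaks, with UBE2R2 in the place of UBE2Q1.

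Of these matches, 4 are shown with 10 bases on each side, on the strand of the gene and in capitals, read from hg38. They are UBE2J2 at chr1:1273819-1273846 (- strand), UBE2L3 at chr22:21567732-21567759 (+ strand), UBE2R2 at chr9:33817877-33817904 (+ strand) and UBE2V1 at chr20:50113114-50113141 (- strand).
UBE2J2: cccgcgagcgGCCATCTTggaggctgag
UBE2L3: caccaaatccAAGATGGCggccagcagg
UBE2R2: ctgggaggtgGCCATCTTcggacccccc
UBE2V1: agagcgacgcAAGATGGCagccaccacg
In UBE2J2, UBE2L3 and UBE2V1 the match began 18, 28 and 19 bases after the canonical start, at a position annotated as 5′ UTR. As printed, the matches of UBE2L3 and UBE2V1 contain the triplet ATG. Whether these matches run into the coding sequence was not recorded. In UBE2R2 the match lay 727 bases after the start, in coding sequence. No match lay wholly inside a PHF20L1 peak.

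ACTTCCGG was in 4 of 23 bound USP promoters (17.4%, interval 6.98 to 37.1) and in 0 of 29 unbound ones (0%, interval 0 to 11.7), and in 1 of 14 bound and 3 of 23 unbound UBE2 promoters. Over all coding genes it was in 16.5% of bound and 3.44% of unbound promoters, and in 6.14% of all. The USP values lay near those of all genes, and the intervals of bound and unbound UBE2 promoters overlapped. This sequence had been chosen because it was known to be frequent in these peaks. The PHF20 peaks of 6 USP genes held it, shown in the same way at USP16 at chr21:29024632-29024659 (+ strand), USP19 at chr3:49120937-49120964 (- strand), USP30 at chr12:109052508-109052535 (+ strand), USP36 at chr17:78841089-78841116 (- strand), USP39 at chr2:85612082-85612109 (+ strand) and USP40 at chr2:233566125-233566152 (- strand).
USP16: atgccgcgttCCGGAAGTtattgctttc
USP19: cccattcccgCCGGAAGTgcgtcaccag
USP30: gggggcagctACTTCCGGtccccctggg
USP36: ctcggccgacCCGGAAGTagcggcacct
USP39: ccgcatcctgACTTCCGGtctgggaggc
USP40: cagtgaactgACTTCCGGcccaacagct
At USP16 and USP30 the match lay inside the PHF20L1 peak as well. At USP19, USP16 and USP39 it lay 16, 9 and 11 bases upstream of the nearest annotated start.

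The other three sequences were rare. CACGTGAC occurred at 2 places in the PHF20 peak of UBE2B, in the promoter of the bound UBE2Q1 and in those of 3 unbound USP genes, USP28, USP31 and USP32. GCGCATGC was in 2 of 23 bound and 3 of 29 unbound USP promoters and in that of the unbound UBE2K. TCGCGAGA was in the peaks of UBE2D2 and USP54, and in the promoters of USP1 and the unbound USP47. A match is only a run of letters and does not show that a factor binds there.

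Other genes of the ubiquitin system, in 6 lists of 78 genes, were bound by PHF20 in 34 cases (43.6%) and by PHF20L1 in 5 (6.41%). The members had 41.6% and 8.99%. The shares were 20.7% and 3.82% over all protein-coding genes, and 28.6% and 5.09% over those with CpG-rich promoters. No intervals were taken for these lists, most of which are small. Of E1 genes, 7 of 10 had PHF20, including UBA6, which charges UBE2Z, and UBA2, SAE1 and NAE1, which are subunits of E1s for other modifiers. UBA1, the main ubiquitin E1, and UBA3 and UBA7 had no peak. E2-type genes with other names were bound in 5 of 8 cases, with TSG101 and the autophagy gene ATG3 among them and CDC34 and BIRC6 unbound.

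Other deubiquitinases were bound in 11 of 35 cases (31.4%), among them BAP1, OTUB1 and the proteasome subunit PSMD14, which alone of the list had PHF20L1. CYLD, a USP-type enzyme with another symbol, had PHF20. Of cullin scaffolds and RING partners, 6 of 10 had PHF20, and CUL4A and CUL5 also had PHF20L1. Ubiquitin and ubiquitin-like genes were bound in 4 of 14 cases, which included the polyubiquitin gene UBB but not RPS27A, a ubiquitin gene fused to a ribosomal protein.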

How the data were processed

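HA ChIP-Seq of tagged PHF20 and PHF20L1 in U2OS cells was taken as 2 deposited peak lists. Per the methods and the submitters' processing notes, reads were aligned by the authors to hg38 (Bowtie 1.1.2), with unique reads kept and duplicates removed. They called peaks with MACS2 2.2.7.1 against input with reads extended to a fixed length, and removed blacklisted regions. Peaks of the best replicate that overlapped peaks of the other replicates formed the final list, and 1 PHF20 replicate that failed was dropped by them. On that description each start, end and width comes from 1 library per protein. Low-mappability promoters, such as those of repeat genes, can lose reads when only unique reads are kept. The deposited values are genomic positions, with no score, count or height, and the depth of each library is not given in the lists.

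Positions were read with Python 3.11.15 and pandas 2.3.3 and are counted from 1. Genes came from GENCODE release 44, later than the authors' release. Promoter composition was taken with pysam 0.24.0 over 250 bases before to 50 after the canonical start. Paralog identity is the percent of identical residues of the shorter protein, aligned with Biopython 1.88 on proteins translated from canonical transcripts. The overlap step was tested on simulated data with 20033 genes, with each planted peak centred inside a window of its gene. All 200 of 200 planted genes were found, and 0 genes were called beyond those of a direct search with the same windows. This checks how the overlap rule was coded and not how often a call is false.

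The members, roles, lists and 8-base sequences were chosen with earlier results of these data known, and UBE2D2 and the 4 AAGATGGC and 6 ACTTCCGG matches to print were chosen after the values were seen. Bound and unbound members are named, except those not reported, with coordinates for those with PHF20L1 and for the widest and narrowest PHF20 peaks of each group. Shares are described with intervals over genes and without tests, because the 2 lists used here hold no value per replicate. Alternatives were other start sets, windows, overlap rules and peak widths. The restriction to CpG-rich promoters was chosen after seeing the data. The results for some genes are not reported here, although they enter the counts. The number of other columns of per-sample values was 0.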

Additional observations from a re-analysis of the deposited data

How the results depend on the processing

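The alternatives were other sets of start sites, other windows, other overlap rules and wider peaks. With peaks from the median width of each list upward, PHF20 was left at 18.9% of UBE2 genes (lower limit 9.48, against 12.1% of all protein-coding genes) and 26.9% of USP genes, PHF20L1 at 5.77% of USP genes (lower limit 1.98, against 2.11%), the PHF20L1 difference was -0.36 points, and 4 members had both proteins. This setting removes the narrower peaks by construction. With peaks of at least 300 bp the UBE2 minus USP difference was -14.5 points for PHF20 and -2.29 for PHF20L1, PHF20L1 was at 7.69% of USP genes, and 6 members had both proteins. Both intervals of the difference included 0 under every setting tried. Under no setting tried did a member become bound that was unbound in the text. Counting only the outermost start lost UBE2D2, UBE2L3, UBE2V1, USP22, USP30 and USP39 for PHF20, and UBE2L3 and USP30 for PHF20L1, which left PHF20L1 at 2.70% of UBE2 genes and both proteins at 6 members. Over 500 bp on each side of the start the ACTTCCGG shares stayed inside their intervals. They were 7.14% in bound and 21.7% in unbound UBE2 promoters, and 21.7% in bound and 6.90% in unbound USP promoters. The last share had been 0% in the 300 bases. The AAGATGGC shares of bound and unbound UBE2 promoters were not compared in this wider stretch. No paired analysis was possible because each list is a single final set without values for its replicates, so no replicate could be left out either. Depth limits what an absent peak can say: an unbound gene had no peak at the authors' thresholds.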
